A study of Mus musculus with 12 samples.

Results

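A set of 78 RNAs was followed through the first 2 weeks after a crush of the mouse sciatic nerve. They were selected on their measured values: in the deposited log2 table, the mean of the 3 day 3 arrays was at least 3 above that of day 0, and the mean of the 3 day 14 arrays lay within 1 of day 0. Each also had to be well above background, a flag the scanner software sets for each spot, on all 3 day 3 arrays. The array carries 90752 probes of 60 bases, and probes with a run of 25 or more identical bases on the same strand were counted as 1 RNA, which left 81540 RNAs. In all, 84 probes met the criteria, and 5 groups of overlapping probes reduced them to 78 RNAs. Only overlaps among the 84 were used here, and merging through probes outside them too gives 77. A larger set of 697 RNAs (743 probes) had the same rise at day 3 but was still more than 1 above day 0 at day 14.

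The nerves came from C57Bl6 mice of about 2 months whose right sciatic nerve was compressed for 30 s, so that axons were interrupted while the outer sheath stayed whole. The labels give day 0, day 3, day 7 and day 14 after injury, and call each sample the crushed nerve, day 0 included. Each day had 3 arrays, each with total RNA pooled from 6 mice (18 mice a day, 72 in all), taken from 0.5 cm of nerve distal to the crush. No genotype or agent differed between the days.

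Below a crush, axons and their myelin break down, a process known as Wallerian degeneration. Schwann cells leave the myelinating state and divide, macrophages and neutrophils enter and clear debris, and new axons then grow in along the Schwann cell columns. RNAs of inflammation and cell division are known to appear early in this course and to decline as regrowth proceeds. The array was designed for long non-coding RNAs, transcripts without a long reading frame, but the deposited files list every probe of the set as unmapped and without a gene name. The RNAs are therefore given by probe identifier and sequence, and whether they are coding was not analysed here. Markers of nerve, immune or other cells were not analysed here for the same reason. In pooled tissue, fewer cells of a type and less RNA per cell cannot be told apart.

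Shown first are the sequences of the 6 RNAs with the largest day 3 difference in the deposited table. With them is 1 more that had a high day 7 signal, MOUSELNCRNA_37991. Only this last one was well above background on all 12 arrays. An RNA of several overlapping probes was ranked by its probe brightest at day 3. MOUSELNCRNA_2919 (6.44) and MOUSELNCRNA_15359 (6.47), merged under MOUSELNCRNA_13427 (4.50), had larger differences than MOUSELNCRNA_48045 (6.11), which is among the 6. Capitals mark AATAAA, the commonest form of the signal for adding a poly(A) tail, where a probe holds it on the printed strand.
MOUSELNCRNA_32823: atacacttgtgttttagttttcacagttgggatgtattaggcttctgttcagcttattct
MOUSELNCRNA_47577: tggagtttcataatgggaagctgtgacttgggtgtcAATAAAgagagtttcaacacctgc
MOUSELNCRNA_18224: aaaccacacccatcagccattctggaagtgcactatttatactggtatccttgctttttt
MOUSELNCRNA_48045: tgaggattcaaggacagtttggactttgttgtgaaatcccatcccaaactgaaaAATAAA
MOUSELNCRNA_65050: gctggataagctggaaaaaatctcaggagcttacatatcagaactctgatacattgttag
MOUSELNCRNA_47247: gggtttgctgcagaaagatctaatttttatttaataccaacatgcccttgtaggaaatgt
MOUSELNCRNA_37991: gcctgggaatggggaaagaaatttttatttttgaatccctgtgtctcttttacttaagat

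The 4 RNAs with the lowest day 7 signal relative to day 0 follow, with AATAAA again in capitals.
MOUSELNCRNA_78803: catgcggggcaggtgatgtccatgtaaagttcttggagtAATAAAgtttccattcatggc
MOUSELNCRNA_70361: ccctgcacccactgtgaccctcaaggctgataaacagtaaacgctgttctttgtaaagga
MOUSELNCRNA_43984: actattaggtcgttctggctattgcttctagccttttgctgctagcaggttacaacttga
MOUSELNCRNA_86669: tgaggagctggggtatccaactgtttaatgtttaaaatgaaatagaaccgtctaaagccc

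All signals given from here on, unless the deposited table is named, are log2 processed scanner signals with each array scaled to the same 75th percentile, and a difference of 1 is a doubling. On this scale the 78 RNAs stood a median of 3.78 above day 0 at day 3 (range 2.79 to 7.36) and 0.36 above day 0 at day 14 (range -1.04 to 1.27). These differences chose the members and are a description only. The median over all 62803 probes tested (each had to pass the background flag on every array of some day) was 0.03 at day 3 and -0.13 at day 14. Since the selection used the deposited table, 72 of the 78 RNAs stood 3 or more above day 0 at day 3 on the scanner scale, and 74 lay within 1 of day 0 at day 14. For all 78, every day 3 array was above every day 0 array and every day 14 array.

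The arrays lay on 3 slides, and the days were spread unevenly over them. Slide 1 held replicates 1 and 2 of day 0 and of day 3. Slide 2 held replicate 3 of day 0, replicate 3 of day 3 and replicates 2 and 3 of day 7. Slide 3 held replicate 1 of day 7 and all of day 14. The share of spots flagged well above background ran from 64.2% to 79.5% over the arrays, and no spot was saturated. The number of arrays limits the precision, and the labels do not say more of the pools than that they are biological replications of a day. On 67 of the 78 RNAs the highest of the 12 signals was that of day 3 replicate 3.

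**Figure D1:**
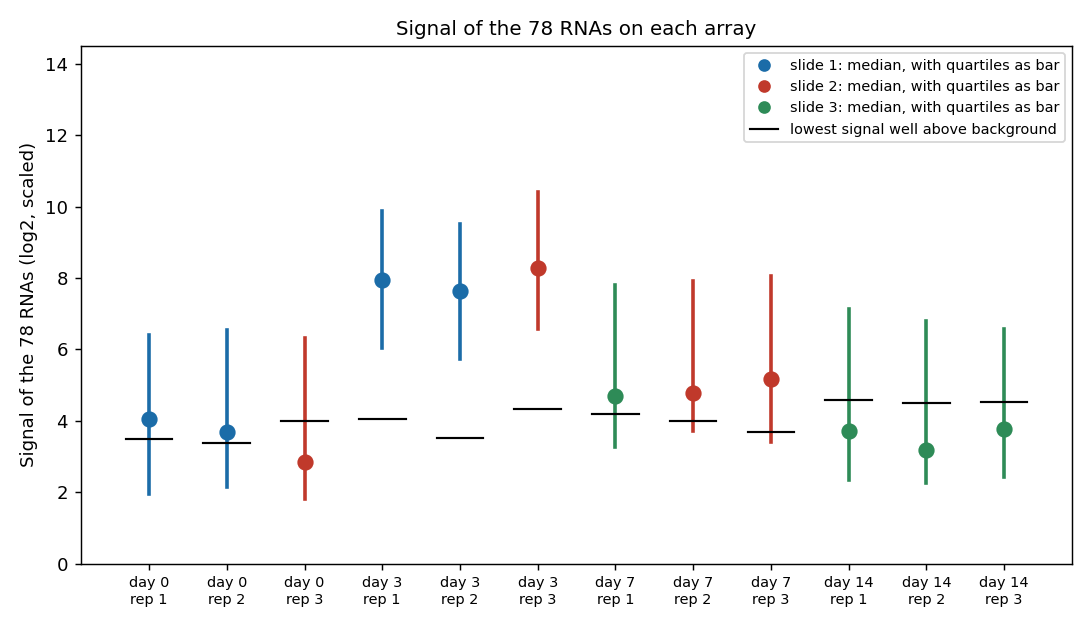
Log2 scaled signal of the 78 RNAs (y axis) on each of the 12 arrays (x axis), with the median as a point, the quartiles as a bar, the slide as colour and a black line at the faintest signal that passed the background flag. The medians lie at 2.86 to 4.04 on the day 0 arrays, 7.64 to 8.29 at day 3, 4.69 to 5.17 at day 7 and 3.18 to 3.77 at day 14, and the black line is highest at day 14.

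How far the return could be measured differed within the set. At day 0, 32 of the 78 RNAs were seen, that is well above background, on all 3 arrays, 11 on some and 35 on none. At day 14, 28 were seen on all 3 arrays and 48 on none, and the 35 RNAs seen on no day 0 array were all among those 48. For these 35, "back to day 0" means only that both days were below background. The lowest signal well above background was 3.38 to 3.99 on the day 0 arrays and 4.50 to 4.58 on the day 14 arrays, so the floor under a return was higher at day 14 than at day 0. The members were less often seen at day 0 than most probes, on arrays that the selection used: 44.9% were seen on no day 0 array and 35.9% on all 12 arrays, against 0.885% and 84.2% of all probes tested. At day 3 their median signal was 7.92, against 8.17 over all probes tested. Of the probes that were still high at day 14, 19.8% were seen on no day 0 array and 65.7% on all 12.

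By detection, 4 classes were formed. A total of 28 RNAs were seen on all 12 arrays, and their return was measured on both sides. Another 8 were seen throughout day 3 and day 7 but never at day 0 or day 14, 19 were seen at day 3 only, and 23 were seen on some arrays of the other days. The 28 RNAs seen throughout stood a median of 3.38 above day 0 at day 3 (range 2.89 to 4.27), 1.50 above it at day 7 and 0.50 above it at day 14. As folds, their day 3 signals were 7.41 to 19.3 times those of day 0, with a median of 10.4. For the 35 RNAs without a day 0 signal, day 3 was at least 2.74-fold to at least 78.6-fold higher than day 0, with a median bound of 6.02. Such a bound replaces the dim signal, on each array where it is smaller, by the faintest signal that passed the background flag there. For the 48 RNAs without a day 14 signal, day 3 was at least 1.45-fold to at least 118-fold higher than day 14, with a median bound of 3.44.

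**Figure D2:**
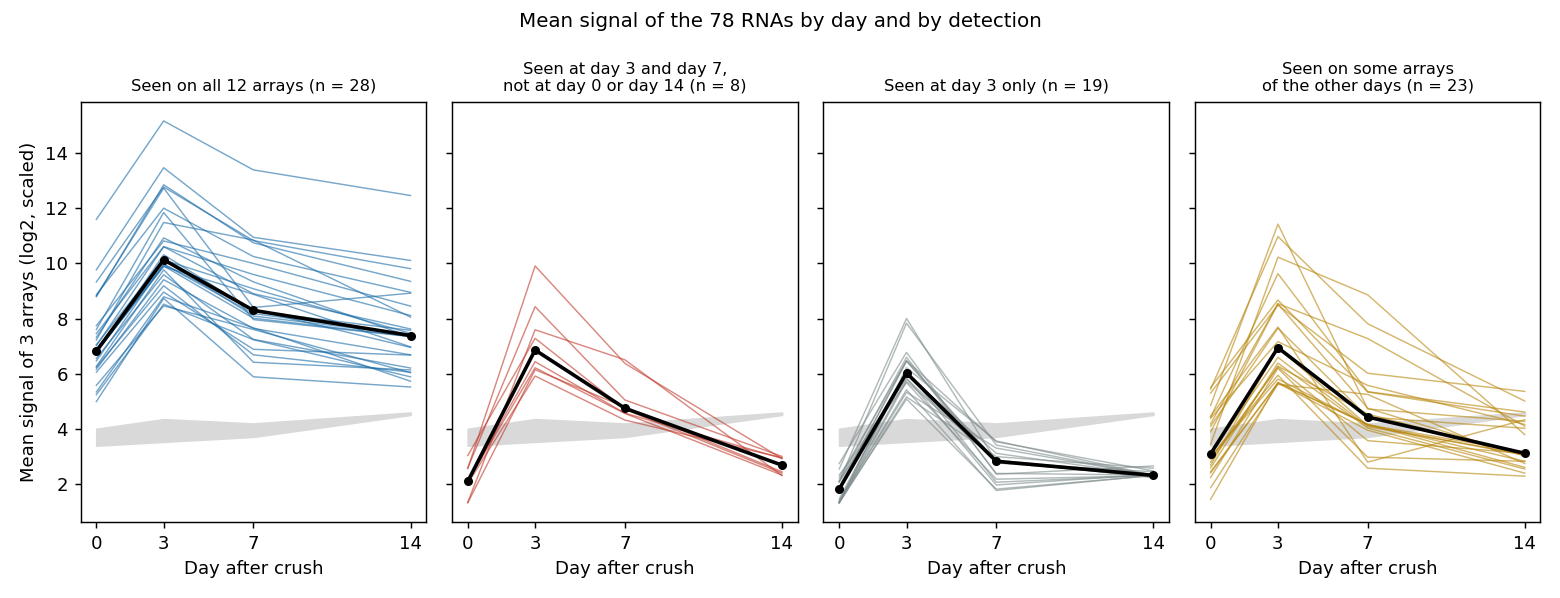
Mean log2 scaled signal of the 3 arrays of a day (y axis) against the day after the crush (x axis), with a line for each of the 78 RNAs, the median of a class in black, and the range of the lowest signal well above background on the arrays of a day in grey. The 28 RNAs seen on all 12 arrays stay above the grey band, while the 8 and the 19 RNAs of the middle panels lie under it at day 0 and at day 14.

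Day 7 was the only time point that the selection did not use, and it shows whether the RNAs had already come down a week after the crush. At day 7 part of the set was on the way down, below day 3 but still above day 0. Of the 78 RNAs, 52 (66.7%) were called above day 0 at day 7, where 20.4% of all probes tested were. With normexp background correction the count was 37, against 12353 of the 62803 probes tested. MOUSELNCRNA_78803 was called lower, and 25 were not called. In addition, 74 of 78 (94.9%) were called below day 3 at day 7, against 18.6% of all probes tested; none was called higher and 4 were not called. Both calls together held for 48 RNAs, 38 of which were seen on some array of day 0 or day 7, and every day 7 array lay between the day 0 and the day 3 arrays for 52. The calls are from limma over all probes, at a Benjamini-Hochberg adjusted p below 0.05. The day 0 and day 3 arrays of these comparisons also chose the members, which were high on day 3 by that choice.

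In size, the set stood a median of 1.42 above day 0 at day 7 (range -1.68 to 5.42), against -0.11 over all probes tested, and 2.42 under day 3. With normexp background correction the median above day 0 was 0.490. What was left of the log2 rise of day 3 was measured for the 28 RNAs seen on all 12 arrays. Among these a median of 44.7% was left at day 7 (range -10.8% to 85.1%), with over 50% left in 12 and under 10% in 3. Among the 743 probes still high at day 14, 99.5% were called above day 0 at day 7, and 60.3% were called below day 3 at day 7. The difference between these sets was not tested, since the day 14 level that separates them was used to choose them.

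The dim members need care in these counts. Of the 52 RNAs called above day 0 at day 7, 10 were well above background on no array of either day, so their call rests on signals below background. Of the 30 RNAs seen on all 3 arrays of both days, 24 were called above day 0. By class, 22 of the 28 RNAs seen on all 12 arrays were called above day 0 at day 7, as were all 8 of those seen at day 3 and day 7 only, 10 of the 19 seen at day 3 only and 12 of the remaining 23.

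**Figure D3:**
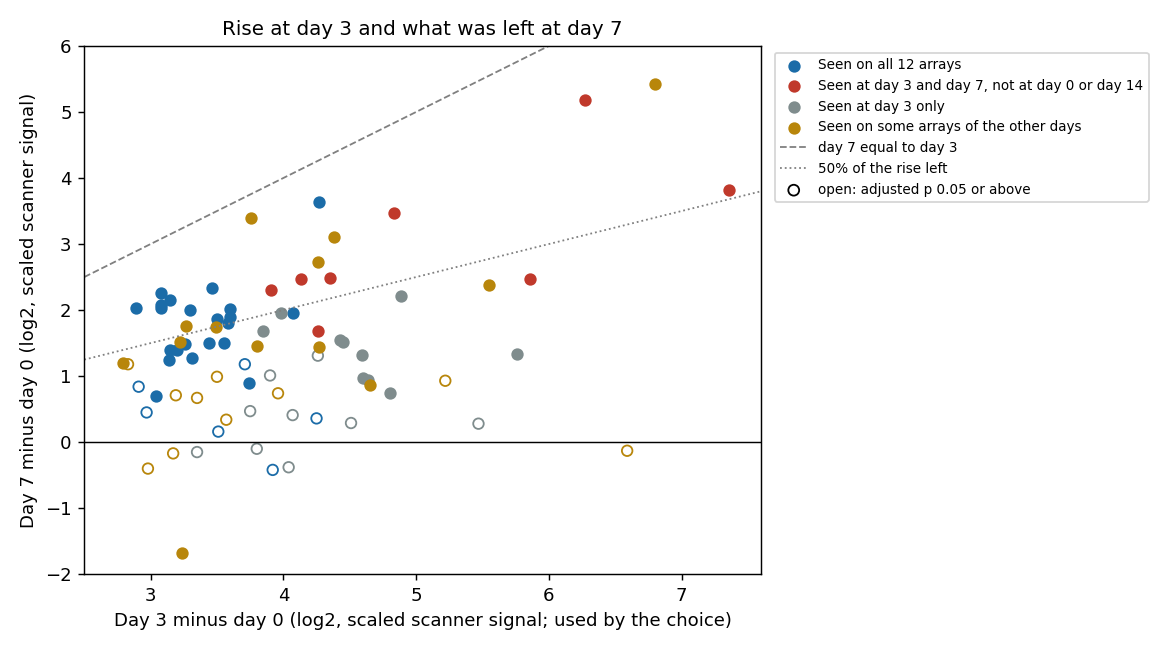
Day 7 minus day 0 (y axis) against day 3 minus day 0 (x axis), both as differences of mean log2 scaled signals, for the 78 RNAs, with detection as colour and filled points where limma's adjusted p for day 7 against day 0 was below 0.05. The dashed line marks a day 7 level equal to day 3 and the dotted line 50% of the rise; 12 of the 28 RNAs seen on all 12 arrays lie above the dotted line, and MOUSELNCRNA_78803 is the filled point below 0.

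MOUSELNCRNA_32823 had the largest day 3 difference in the deposited table, against a day 0 level below background. Its signal was 3.01, 2.86 and 1.78 on the day 0 arrays, 9.97, 9.34 and 10.43 at day 3, 6.15, 6.73 and 6.22 at day 7, and 2.76, 2.66 and 3.30 at day 14. The day 3 and day 7 arrays overlap neither each other nor the other days, and the probe was seen on no day 0 and no day 14 array. Day 3 was at least 78.6-fold and day 7 at least 6.72-fold higher than day 0. The fit gave a day 7 difference of 3.82 from day 0 (SE 0.36, limma adjusted p = 1.07e-05).

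MOUSELNCRNA_47577 was still high at day 7 and below background at day 14. Its day 3 signals were 10.17, 10.15 and 10.38, its day 7 signals 8.39, 9.40 and 8.78, and its day 14 signals 3.88, 3.64 and 3.81. At day 0 it read 3.56, 3.93 and 2.81 and was seen on 1 of 3 arrays. It was 5.42 above day 0 at day 7 (SE 0.29, limma adjusted p = 2.18e-07). It fell from day 7 to day 14 (limma adjusted p = 7.09e-06), and since no day 14 array saw it, day 7 was at least 19.9-fold higher. Its day 7 decrease from day 3, -1.38 (SE 0.29, limma adjusted p = 0.00585), lost its call with slide as a fixed block, at -0.90 (limma adjusted p = 0.0758).

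MOUSELNCRNA_65050 showed the same late fall from a base below background. It read 1.15, 1.05 and 1.77 at day 0, 7.40, 7.29 and 8.09 at day 3, 6.39, 6.91 and 6.21 at day 7, and 2.29, 2.23 and 2.34 at day 14. Day 7 was at least 7.39-fold above day 0 and at least 3.91-fold above day 14. The day 7 difference from day 0 was 5.18 (SE 0.25, limma adjusted p = 1.43e-07).

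MOUSELNCRNA_37991 was well above background throughout, so its course was measured on every day. The signals were 7.22, 7.32 and 7.13 at day 0, 11.44, 11.28 and 11.75 at day 3, 10.90, 11.38 and 10.28 at day 7, and 7.85, 7.80 and 8.50 at day 14. The day 3 and day 7 arrays overlapped, and their difference of -0.64 (SE 0.27, limma adjusted p = 0.0823) was not called. It was 3.63 above day 0 at day 7 (SE 0.27, limma adjusted p = 1.82e-06), or 12.4-fold, and fell by 2.80 to day 14 (SE 0.27, limma adjusted p = 0.000122).

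MOUSELNCRNA_18224 is the opposite case, with a peak at day 3 alone. It read 4.89, 5.10 and 4.51 at day 0, 10.75, 10.84 and 12.69 at day 3, 4.41, 4.81 and 4.91 at day 7, and 4.01, 4.22 and 4.56 at day 14. The day 7 arrays overlapped the day 0 arrays, with a difference of -0.13 (SE 0.43, limma adjusted p = 0.823) that turned to 0.26 under quantile normalization. It was seen on all day 0 arrays and 2 of 3 day 7 arrays, and it fell by 6.71 from day 3 to day 7 (SE 0.43, limma adjusted p = 1.14e-05). Its day 3 signal was 96.2 times that of day 0, a measured ratio. Seen on no day 14 array, it was at least 118-fold higher at day 3 than at day 14.

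The remaining 2 of the 6 RNAs with the largest differences also rose from a day 0 level below background. MOUSELNCRNA_48045 read 2.94, 2.98 and 1.77 at day 0, 8.62, 7.58 and 9.09 at day 3, 4.78, 4.40 and 5.94 at day 7, and 2.40, 2.54 and 4.02 at day 14. MOUSELNCRNA_47247 had 7.80, 7.51 and 8.18 at day 3 and was seen on no array of any other day, at 1.78 to 2.61 on day 0, 3.12 to 3.77 on day 7 and 2.24 to 2.31 on day 14. Both were seen at neither day 0 nor day 14, with day 3 at least 28.1-fold and at least 18.5-fold above day 0.

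**Figure D4:**
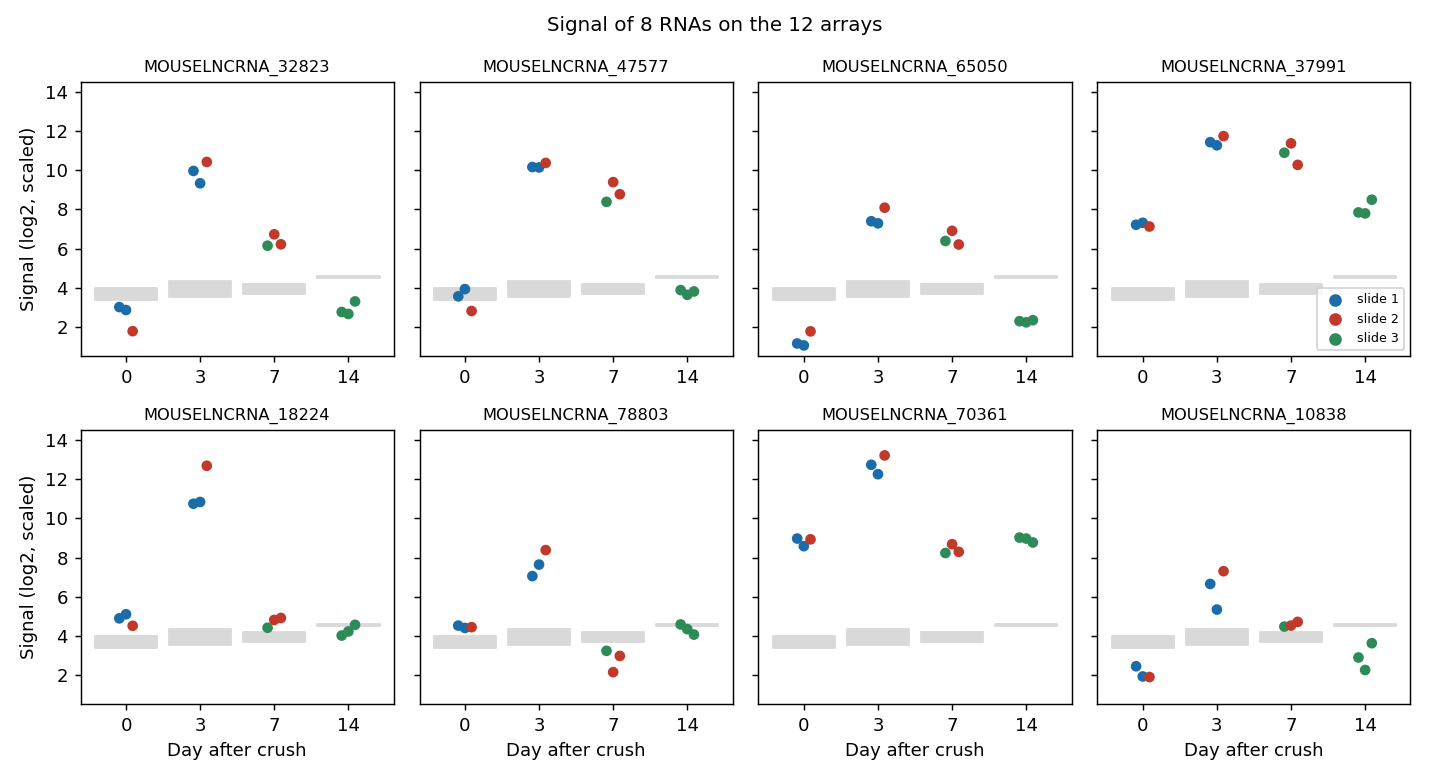
Log2 scaled signal (y axis) on each of the 12 arrays by day after the crush (x axis) for 8 RNAs, with the slide as colour and the range of the lowest signal well above background of each day in grey. MOUSELNCRNA_37991 still reads 10.28 to 11.38 at day 7, whereas MOUSELNCRNA_18224 and MOUSELNCRNA_70361 read at day 7 about what they read at day 0.

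Among the RNAs that were lowest at day 7, MOUSELNCRNA_70361 was also the brightest. Its 3 day 0 signals were 8.97, 8.58 and 8.93, its day 3 signals 12.74, 12.26 and 13.22, its day 7 signals 8.23, 8.68 and 8.29, and its day 14 signals 9.02, 8.97 and 8.77. The day 0, day 7 and day 14 arrays all lay between 8.23 and 9.02, and the day 7 difference from day 0 of -0.42 (SE 0.22, limma adjusted p = 0.141) was not called. It fell by 4.34 from day 3 to day 7 (SE 0.22, limma adjusted p = 3.56e-06), and none of its day 3 rise was left at day 7.

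MOUSELNCRNA_78803 went under its day 0 level at day 7. The day 0 signals were 4.52, 4.40 and 4.44, the day 3 signals 7.05, 7.64 and 8.38, the day 7 signals 3.23, 2.14 and 2.97, and the day 14 signals 4.58, 4.34 and 4.06. The day 7 arrays lay below all others, with a difference from day 0 of -1.68 (SE 0.33, limma adjusted p = 0.00216). As it was seen throughout day 0 and never at day 7, day 0 was at least 1.40-fold higher. Its higher signal at day 14 than at day 7, 1.55 (SE 0.33, limma adjusted p = 0.0147), was the only such call in the set, lay below background on both days, and lost its call with slide as a fixed block (limma adjusted p = 0.176).

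The other 2 of the lowest 4 were below background at day 7 and day 14. MOUSELNCRNA_43984 read 4.13, 3.08 and 1.66 at day 0 and 5.83, 5.57 and 6.41 at day 3. MOUSELNCRNA_86669 read 2.92, 2.90 and 2.37 at day 0 and 6.19, 6.07 and 8.05 at day 3. Their day 7 differences from day 0, -0.40 and -0.38, were not called and were 0.16 and 0.11 under quantile normalization.

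The 28 RNAs seen on all 12 arrays formed a graded series at day 7. The brightest, MOUSELNCRNA_73986, named after its values were seen, read 11.84, 11.46 and 11.49 at day 0, 15.13, 15.15 and 15.25 at day 3, 13.30, 13.32 and 13.57 at day 7, and 13.19, 12.28 and 11.93 at day 14. Its day 7 arrays lay between day 0 and day 3 without overlap, 1.80 above day 0 (limma adjusted p = 0.000263), while its day 14 arrays spread over more than 1 log2 unit. The series ran from MOUSELNCRNA_37991, 3.63 above day 0, down to MOUSELNCRNA_70361. Near its low end stood MOUSELNCRNA_55908 and MOUSELNCRNA_84307, also named after their values were seen. They were 0.16 and 0.36 above day 0 (limma adjusted p = 0.838 and 0.130). MOUSELNCRNA_84307 was called above day 0 once slide was blocked, by 0.70 (limma adjusted p = 0.0160).

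From day 7 to day 14 a smaller part of the set came down further. Of the 78, 35 (44.9%) were called below day 7 at day 14, against 4.35% of all probes tested, 1 was called higher and 42 were not called. All 35 were among the 52 called above day 0 at day 7, an overlap that the choice favoured by holding day 14 near day 0. The median difference was -1.0, against -0.05 over all probes tested. By class, the calls fell on 16 of the 28 RNAs seen on all 12 arrays, 7 of the 8 seen at day 3 and day 7 only, 2 of the 19 seen at day 3 only and 10 of the other 23. The day 14 arrays of this comparison also chose the members. Both calls among the RNAs seen at day 3 only rest on signals below background on day 7 and on day 14. The count over the 78 was 20 with normexp background correction, against 2381 of the 62803 probes tested.

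With slide as a fixed block, 48 RNAs were called above day 0 at day 7 (43 of them shared with the fit without it). With it, 64 were called below day 3 at day 7 (all 64 shared), and 21 below day 7 at day 14 (20 shared). Over all 62803 probes tested, the same fit called 10554, 9336 and 1404 in those directions. Within slide 2, day 7 stood a median of 1.62 above day 0 and 2.64 under day 3. Within slide 3, day 14 stood a median of 0.89 under day 7. Among others, MOUSELNCRNA_48045, MOUSELNCRNA_47247 and MOUSELNCRNA_73986 lost their call for a decrease from day 7 to day 14 with the block (limma adjusted p = 0.307, 0.179 and 0.297).

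No slide held both day 0 and day 14, so the return itself was compared across slides, which was not tested. When the day 7 minus day 0 difference within slide 2 was added to the day 14 minus day 7 difference within slide 3, a measure chosen after the data were seen, day 14 stood a median of 0.81 above day 0 (range -1.66 to 2.19). This linked value was within 1 of day 0 for 47 of the 78 RNAs, more than 1 above it for 30 and more than 1 below for 1. It rests on 1 day 0 array in the first difference and on 1 day 7 array in the second. Over all probes tested the linked median was 0.00. For the 28 RNAs seen on all 12 arrays it was 0.79 (range -0.61 to 1.90), with 20 within 1 and 8 above. MOUSELNCRNA_37991 stood at 0.86 and MOUSELNCRNA_70361 at 0.25 by this measure, while MOUSELNCRNA_32823 stood at 1.45 and MOUSELNCRNA_47577 at 1.67. The size of the day 3 difference also differed between slides, with a median of 3.51 within slide 1 and 4.34 within slide 2.

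Of the 5 merged groups, 3 are shown because they let the same stretch of RNA be read more than once. In the first, capitals mark the 44 bases that the 3 probes share.
MOUSELNCRNA_13427: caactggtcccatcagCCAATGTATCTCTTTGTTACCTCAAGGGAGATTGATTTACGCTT
MOUSELNCRNA_2919: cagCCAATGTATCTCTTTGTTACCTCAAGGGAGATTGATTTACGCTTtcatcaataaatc
MOUSELNCRNA_15359: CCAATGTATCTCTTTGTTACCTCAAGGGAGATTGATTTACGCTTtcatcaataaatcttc
At day 3 the 3 probes read alike, at 8.54 ± 0.66, 8.31 ± 0.61 and 8.24 ± 0.60 (SD, n = 3 each), and at day 7 at 7.27 ± 0.28, 6.85 ± 0.37 and 6.68 ± 0.42 (SD, n = 3 each). At day 0 they parted: MOUSELNCRNA_13427 read 4.61, 5.60 and 2.28, the first 2 of which were well above background, while MOUSELNCRNA_2919 read 1.15, 1.05 and 1.86 and MOUSELNCRNA_15359 1.15, 1.05 and 1.72. The estimated rise of this RNA thus depends on the probe. For MOUSELNCRNA_13427 the day 7 difference from day 0 was 3.10 (SE 0.66, limma adjusted p = 0.00327), and its decrease to day 14 lost its call with slide as a fixed block (limma adjusted p = 0.119). The decreases of MOUSELNCRNA_2919 and MOUSELNCRNA_15359 to day 14 kept their calls with that block (limma adjusted p = 0.000677 and 0.000649). No day 14 array saw any of the 3 probes.

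In the second group the probes are shifted by 3 bases, and capitals mark the 57 shared bases.
MOUSELNCRNA_65050: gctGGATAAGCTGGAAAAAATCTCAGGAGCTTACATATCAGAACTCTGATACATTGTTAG
MOUSELNCRNA_70321: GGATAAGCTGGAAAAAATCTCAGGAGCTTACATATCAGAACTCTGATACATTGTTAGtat
MOUSELNCRNA_70321 read 7.39 ± 0.48 at day 3, 6.35 ± 0.40 at day 7 and 2.34 ± 0.05 at day 14 (SD, n = 3 each), where MOUSELNCRNA_65050 read 7.59 ± 0.43, 6.50 ± 0.37 and 2.29 ± 0.05 (SD, n = 3 each). At day 0 it read 1.15, 1.05 and 3.67, none well above background.

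In the third group the probes differ at a single base, shown in capitals (G9A from MOUSELNCRNA_86320 to MOUSELNCRNA_24915, counted from 1 at the 5′ end).
MOUSELNCRNA_86320: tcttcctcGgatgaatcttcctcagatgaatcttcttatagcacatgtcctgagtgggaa
MOUSELNCRNA_24915: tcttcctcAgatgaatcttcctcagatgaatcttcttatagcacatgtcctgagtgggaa
MOUSELNCRNA_86320 read 6.27 ± 0.21 at day 3 and 4.53 ± 0.25 at day 7, and MOUSELNCRNA_24915 read 5.89 ± 0.05 and 4.18 ± 0.08 (SD, n = 3 each). Both were seen on 2 of 3 day 7 arrays and on no day 0 or day 14 array. The call of MOUSELNCRNA_86320 for a decrease from day 7 to day 14 was also lost with slide as a fixed block (limma adjusted p = 0.104). That of MOUSELNCRNA_24915 was kept (limma adjusted p = 0.00127).

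A different single base separated a member from a probe outside the set (C5G from MOUSELNCRNA_50994 to MOUSELNCRNA_59838), and here the signals differed. Capitals mark that base.
MOUSELNCRNA_50994: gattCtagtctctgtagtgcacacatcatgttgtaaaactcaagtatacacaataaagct
MOUSELNCRNA_59838: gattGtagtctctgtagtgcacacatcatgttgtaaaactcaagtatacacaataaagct
MOUSELNCRNA_50994 read 1.15, 3.81 and 1.70 at day 0, 4.32, 7.68 and 6.55 at day 3, 3.42, 2.37 and 3.09 at day 7, and 2.26, 2.17 and 3.98 at day 14. MOUSELNCRNA_59838 read 2.35, 2.15 and 2.69 at day 3 and was well above background on no array. The member's day 3 arrays spread over more than 3 log2 units, so that its place in the set rests on an uneven signal.

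Probes that overlap members but missed the criteria lay close to the limits in some cases and well outside them in others. MOUSELNCRNA_14400 shares 55 and 52 bases with 2 probes that stood 2.83 and 2.78 above day 0 at day 3 in the deposited table, under the limit of 3. The second of these, MOUSELNCRNA_456, also missed the day 14 limit, at -1.11. MOUSELNCRNA_43984 shares 48 bases with a probe 2.88 above day 0 at day 3. MOUSELNCRNA_55908 differs at 1 of 54 aligned bases from MOUSELNCRNA_32517. That probe stood 5.23 above day 0 at day 3 and 1.77 above at day 14 in the deposited table. It was seen on 2 of 3 arrays of day 0 and of day 14. MOUSELNCRNA_49091 differs at 5 of 58 aligned bases from MOUSELNCRNA_43835, which stood 5.24 above day 0 at day 3 and 2.05 above at day 14 in that table. Both were uneven at day 14, at 7.16, 4.92 and 3.96 for the member and 7.58, 5.25 and 3.80 for its partner, in the same order of arrays.

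**Figure D5:**
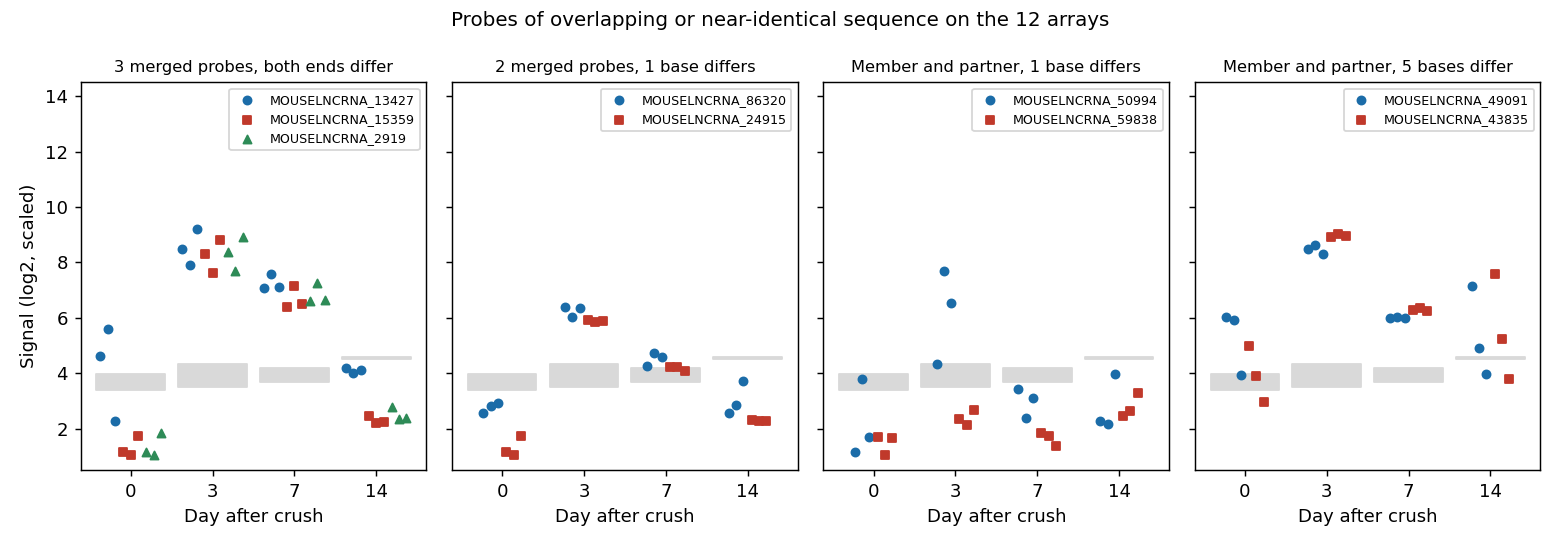
Log2 scaled signal (y axis) on each of the 12 arrays by day after the crush (x axis) for 4 sets of probes with overlapping or near-identical sequence, with the range of the lowest signal well above background of each day in grey. The 3 merged probes of the first panel coincide at day 3 and part at day 0 and at day 14. MOUSELNCRNA_59838, at 1 base from MOUSELNCRNA_50994, stays under the band.

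Only 1 member had a counterpart on the other strand. Capitals mark 29 bases that MOUSELNCRNA_22167 and MOUSELNCRNA_60922 hold on opposite strands.
MOUSELNCRNA_22167: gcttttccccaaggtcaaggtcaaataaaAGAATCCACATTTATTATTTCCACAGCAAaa
MOUSELNCRNA_60922: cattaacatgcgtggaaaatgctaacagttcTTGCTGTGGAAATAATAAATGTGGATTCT
The member read 5.33 ± 0.19 at day 0, 8.79 ± 0.56 at day 3, 7.66 ± 0.47 at day 7 and 5.72 ± 0.23 at day 14 (SD, n = 3 each). The counterpart was bright and lower on the later days, at 14.18 ± 0.02 at day 0, 13.28 ± 0.30 at day 3, 13.43 ± 0.19 at day 7 and 13.74 ± 0.07 at day 14 (SD, n = 3 each). These values are a description without a test.

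The places of most of the RNAs in the genome were not analysed here, as no genome was used. Against RefSeq's windows from 250 bases before to 50 bases after each gene's start (assembly GRCm38.p6), 2 of the 84 probes matched over 25 or more bases, or 2.38%, against 3.27% of all 90752 probes. None matched a RefSeq microRNA hairpin. Capitals mark the matched bases.
MOUSELNCRNA_10838: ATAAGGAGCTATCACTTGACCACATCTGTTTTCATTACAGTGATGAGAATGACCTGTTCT
MOUSELNCRNA_32497: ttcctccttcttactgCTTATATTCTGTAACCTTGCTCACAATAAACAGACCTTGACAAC
All 60 bases of MOUSELNCRNA_10838 lie at chr2:129369732-129369791 on the minus strand, inside the span RefSeq gives Il1b (129364569 to 129371164). Il1b encodes the inflammatory cytokine interleukin-1 beta. The same bases lie, on the opposite strand, in the start window of Il1bos, an RNA annotated on the plus strand. Whether they are exonic or intronic was not analysed here. The probe read 2.44, 1.92 and 1.89 at day 0, 6.65, 5.34 and 7.30 at day 3, 4.47, 4.52 and 4.71 at day 7, and 2.89, 2.25 and 3.62 at day 14. It was seen on all day 3 and day 7 arrays and on no other, at least 7.01-fold above day 0 at day 3 and at least 1.93-fold at day 7. The day 7 difference from day 0 was 2.48 (SE 0.45, limma adjusted p = 0.00122), and the decrease to day 14, -1.65 (limma adjusted p = 0.0432), lost its call with slide as a fixed block (limma adjusted p = 0.241).

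The 44 matched bases of MOUSELNCRNA_32497 lie at chr12:99643065-99643108 on the plus strand, across the start of Gm19951. Gm19951 is a RefSeq lncRNA on that strand (99643096 to 99647221). The run begins at base 220 of the window. The probe's other bases, in lower case, do not continue it, although the window reaches further upstream. Whether the probe reads Gm19951 was not tested. The probe was bright enough to be seen on all 12 arrays. Its signals were 6.19, 6.20 and 5.75 at day 0, 9.04, 9.46 and 8.38 at day 3, 6.74, 6.87 and 7.04 at day 7, and 7.15, 6.86 and 6.00 at day 14. All day 7 arrays were above all day 0 arrays, but the difference of 0.84 (SE 0.32, limma adjusted p = 0.0520) was not called. It was called with slide as a fixed block, at 1.35 (limma adjusted p = 0.0176), and under quantile normalization, at 1.04 (limma adjusted p = 0.0152). The day 7 and day 14 arrays overlapped.

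In sequence, each RNA was read by the probe that represents it. Of the 78, 17 (21.79%) held AATAAA on the printed strand. MOUSELNCRNA_2919 and MOUSELNCRNA_15359, merged under MOUSELNCRNA_13427, hold it too and were not counted. Of all 90752 probes 14.68% held it, and of the probes still high at day 14, 22.07%. On the other strand the shares were 6.41% and 3.912%. The median GC content was 38.3% for the members, 41.7% for all probes and 36.7% for the probes still high at day 14, and its part in these shares was not tested. TTATTTAT, a core of the AU-rich elements known to shorten the life of many cytokine mRNAs, was held on the printed strand by 2 members (2.564%), against 0.3207% of all probes, and on the other strand by none, against 0.9058%. On the printed strand it cannot overlap AATAAA, but it can overlap an AATAAA of the other strand, as it does in MOUSELNCRNA_31506. Both members are shown with it in capitals.
MOUSELNCRNA_78312: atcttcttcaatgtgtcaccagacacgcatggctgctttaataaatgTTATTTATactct
MOUSELNCRNA_31506: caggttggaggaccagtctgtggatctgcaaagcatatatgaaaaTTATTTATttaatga
MOUSELNCRNA_78312 read 1.30 ± 0.36 at day 0, 6.14 ± 0.38 at day 3, 4.78 ± 0.30 at day 7 and 2.43 ± 0.37 at day 14, and MOUSELNCRNA_31506 read 4.98 ± 0.18, 8.73 ± 0.30, 5.88 ± 0.16 and 5.51 ± 0.30 (SD, n = 3 each). The first was seen on no day 0 or day 14 array, with day 3 at least 5.73-fold and day 7 at least 2.23-fold above day 0, and the second was seen on all 12 arrays. A reading frame without a stop codon was found on the printed strand of 69.23% of the members and 73.43% of all probes. These matches are a description of the letters in the probes, which cover 60 bases of each RNA.

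At the limits of the selection, in the deposited table, MOUSELNCRNA_56556 (3.00) and MOUSELNCRNA_35628 (3.04) were just inside the day 3 limit, and MOUSELNCRNA_45840 (2.996) and MOUSELNCRNA_84079 (2.98) just outside. At day 14, MOUSELNCRNA_5572 (0.999) and MOUSELNCRNA_66321 (0.97) were just inside the upper limit, and MOUSELNCRNA_90638 and MOUSELNCRNA_76045 (1.03 each) just outside. The lowest day 14 values inside were those of MOUSELNCRNA_14400 (-0.66) and MOUSELNCRNA_43984 (-0.63), and the nearest outside were MOUSELNCRNA_72691 (-1.05) and MOUSELNCRNA_81382 (-1.07).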

How the data were processed

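The authors read one-colour Cy3 arrays into an intensity per spot with Feature Extraction from Agilent (10.7 per the submitters' processing notes, 10.7.1.1 per the file headers). Per the file headers, background was subtracted from the processed intensity and arrays were not scaled to each other. A second deposited table is in log2 units. Its columns share a median of 6.42 and correlate at 0.9928 to 0.9998 with the log2 scanner signals of the same arrays. How that table was normalized is not given in the sources used here. The same criteria on quantile-normalized scanner signals selected the same 84 probes.

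The members were chosen on the deposited log2 table. All other values are log2 processed signals averaged over the spots of a probe, without control spots and 331 outlier spots, and scaled to a common 75th percentile of 9.34. Limma 3.58.1 (R 4.3.3) fitted 1 mean per day over all 12 arrays (8 residual degrees of freedom) for 62803 probes, with Benjamini-Hochberg adjustment. The fit was tested on simulated data. The p-values measure the spread between pools and, where a day spans slides, between slides. A merged RNA is represented by its probe with the highest mean day 3 value in the deposited table.

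The RNAs named are the 6 largest day 3 differences, the 4 highest and 4 lowest day 7 differences, the merged group of 3 probes and, of 4 groups of 2 probes, the 2 with the largest day 3 difference in the deposited table, the members at the limits and those matching a reference table. All other RNAs and probes named were chosen after their values were seen. The members and lists were chosen with earlier results of these data known. The planned lists of cell type and pathway genes need gene names and were not used here. Replicate numbers did not pair the samples: same-number deviations correlated at -0.172 to 0.343 for day 7 against day 0, -0.186 to 0.041 for day 7 against day 3 and -0.297 to -0.056 for day 14 against day 7. Alternatives covered scaling, background correction, filters, slide, replicate block and each array left out.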

Additional observations from a re-analysis of the deposited data

How the results depend on the processing

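The number of RNAs followed the limits: 45 with a day 3 rise of at least 3.5, 154 with at least 2.5, and 44 with day 14 within 0.5 of day 0. It was 102 on scaled scanner signals, with 72 of the 84 probes shared, and ran from 60 (without day 3 replicate 3) to 106 (without day 3 replicate 2). Of the 52861 probes seen on all 12 arrays, 11893 were called above day 0 at day 7 and 10828 lower than day 3. At day 14, 2544 were called lower than at day 7. The 28 members tested among them gave 23, 27 and 17 calls, in the same order. The last count was 20 with normexp background correction, 15 within slide 3 and 21 with slide as a fixed block, against 35 in the fit reported, and 26 to 40 with 1 array left out. The median day 7 minus day 0 over members, 1.42, was 0.490 with normexp and 1.62 within slide 2, and ran from 1.27 to 1.54 with 1 array left out (1.27 without day 0 replicate 3). With 1 array left out, 47 to 55 members were called above day 0 and 66 to 76 below day 3. Quantile normalization moved the median day 7 minus day 0 of all probes tested from -0.11 to -0.01 and turned the sign of that difference in 5 members; its counts were 56, 68 and 33. With the replicate block the counts were 55, 74 and 33. The causes of these moves were not tested. Signals near the floor limit what can be said of the 48 RNAs seen on no day 14 array.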
